A study of Rattus norvegicus with 20 samples.

Results

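Solute carriers are the largest group of membrane transporters that do not spend ATP directly, and their genes carry names that begin with SLC. The members described here are the genes on the array whose table symbol has that form, apart from 14 rows (among them Slc26a4, Slc34a2 and Slc40a1) that the choice of members leaves out. Of 21792 genes in the table, 242 were named in this way. A detection p-value, deposited for each gene and array, says how far a signal stands above the array's negative controls. The 126 members with a detection p under 0.01 on 8 or more of the 20 arrays were tested, and 101 of these were detected on all 20 arrays. The other 116 were set aside, 89 of them detected on 0 arrays.

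The arrays measured RNA from whole lungs of male CDF Fisher 344 rats aged 3 months, 1 bead array per rat. In the silica group, 8 rats (identifiers 81 to 88) inhaled crystalline silica, a mineral dust (15 mg/m3, daily sessions of 6 h, 5 days in all), and lungs were taken 16 h after the last exposure. In the control group, 12 rats breathed air, and all labels give a post-exposure time of 0 weeks for both groups. The control identifiers fall into 3 runs of 4 rats (89 to 92, 105 to 108 and 137 to 140). Nothing in the labels names a batch, a slide or a scan date. Levels below are log2 intensities after background correction and quantile normalization, and a difference is the silica mean minus the air mean on that scale. The silica and air arrays were compared to ask which genes had a different level right after inhalation of the dust.

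Carriers of this family move amino acids, sugars, metals, carboxylates, nucleosides and ions, usually by coupling them to a gradient of sodium or protons or by exchange. Many are specific to 1 membrane: some sit in the plasma membrane, some in the inner mitochondrial membrane and some in endosomes and lysosomes. In the lung, carriers in epithelium, endothelium and macrophages serve the absorption of solutes from the airspace fluid, the clearance of amines such as serotonin from blood, and the handling of metals taken up with particles. Several amino acid carriers work only as a pair, in which a light chain does the transport and a heavy chain brings it to the cell surface.

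Medians of intensity ranged from 67.0 to 98.6 between arrays, and 9434 to 10840 genes were detected per array. The number of arrays limits the precision, and each level rests on a median of 40 to 43 beads per array. Over all genes tested, levels on pairs of arrays correlated at 0.978 to 0.996, where genes are not independent replicates. The lung identity of the samples was read from epithelial markers: Sftpc, the surfactant protein of alveolar type 2 cells, had a mean level of 14.12 in silica and 14.08 in air lungs, and Scgb1a1, the club cell secretoglobin, 14.29 in both. Because the arrays measured whole tissue, fewer cells of a type and less RNA per cell cannot be told apart in any result below.

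Among the 126 solute carriers, 23 rose and 11 fell with silica, and 92 did not pass the test (limma, with a threshold of 0.05 on p-values that were adjusted after Benjamini and Hochberg across 10488 genes). The rises were led by the citrate and dicarboxylate carrier Slc13a2, the monocarboxylate carrier family member Slc16a11, the amino acid carriers Slc7a7, Slc6a20a and Slc7a5, and the iron importer Slc11a2. The falls were led by the neutral amino acid exchanger Slc7a10, the nucleoside carrier Slc29a1 and the glutamine carrier Slc38a5. The 34 members called came to 27.0% of those tested, against 24.5 percent of all genes (11.7 percent rising and 12.7 percent falling), so solute carriers as a family changed at about the rate of all genes on the array. Over the members the median difference was 0.03 and over all genes tested −0.02, and 71 of 126 members had the higher mean in silica. Sizes were small: the 34 called members differed by a median of 0.28 log2 units in either direction.

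At a fold change of at least 1.5, a rise was called for 4 members (Slc13a2, Slc16a11, Slc7a7 and Slc6a20a) and a fall for 0, where the background over all genes was 1.23 percent for rises and 0.114 percent for falls. On every silica array Slc13a2, Slc16a11, Slc7a7 and Slc11a2 lay above all air arrays (background 1.83 percent of genes), and Slc29a1 lay below all of them (background 0.744 percent). Sizes of dim members depended on the background correction. For Slc6a20a the rise was 0.68, but 0.14 with limma's default correction and 0.33 in the authors' deposited log2 values, both short of 1.5-fold, and for Slc7a5 it was 0.50, 0.14 and 0.28. When each of the 20 rats was left out in turn, 24 of the 34 called members passed in every fit and 10 missed the threshold in at least 1, among them Slc44a4, Slc25a24, Slc16a6, Slc31a1, Slc39a4, Slc1a1, Slc2a8, Slc26a8 and Slc4a3, with adjusted p-values of at most 0.112 in limma. The within-group SD of single members ran from 0.04 to 0.35 in silica and from 0.07 to 0.40 in air lungs, and it was larger in air lungs for 83 of 126 members.

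**Figure D1:**
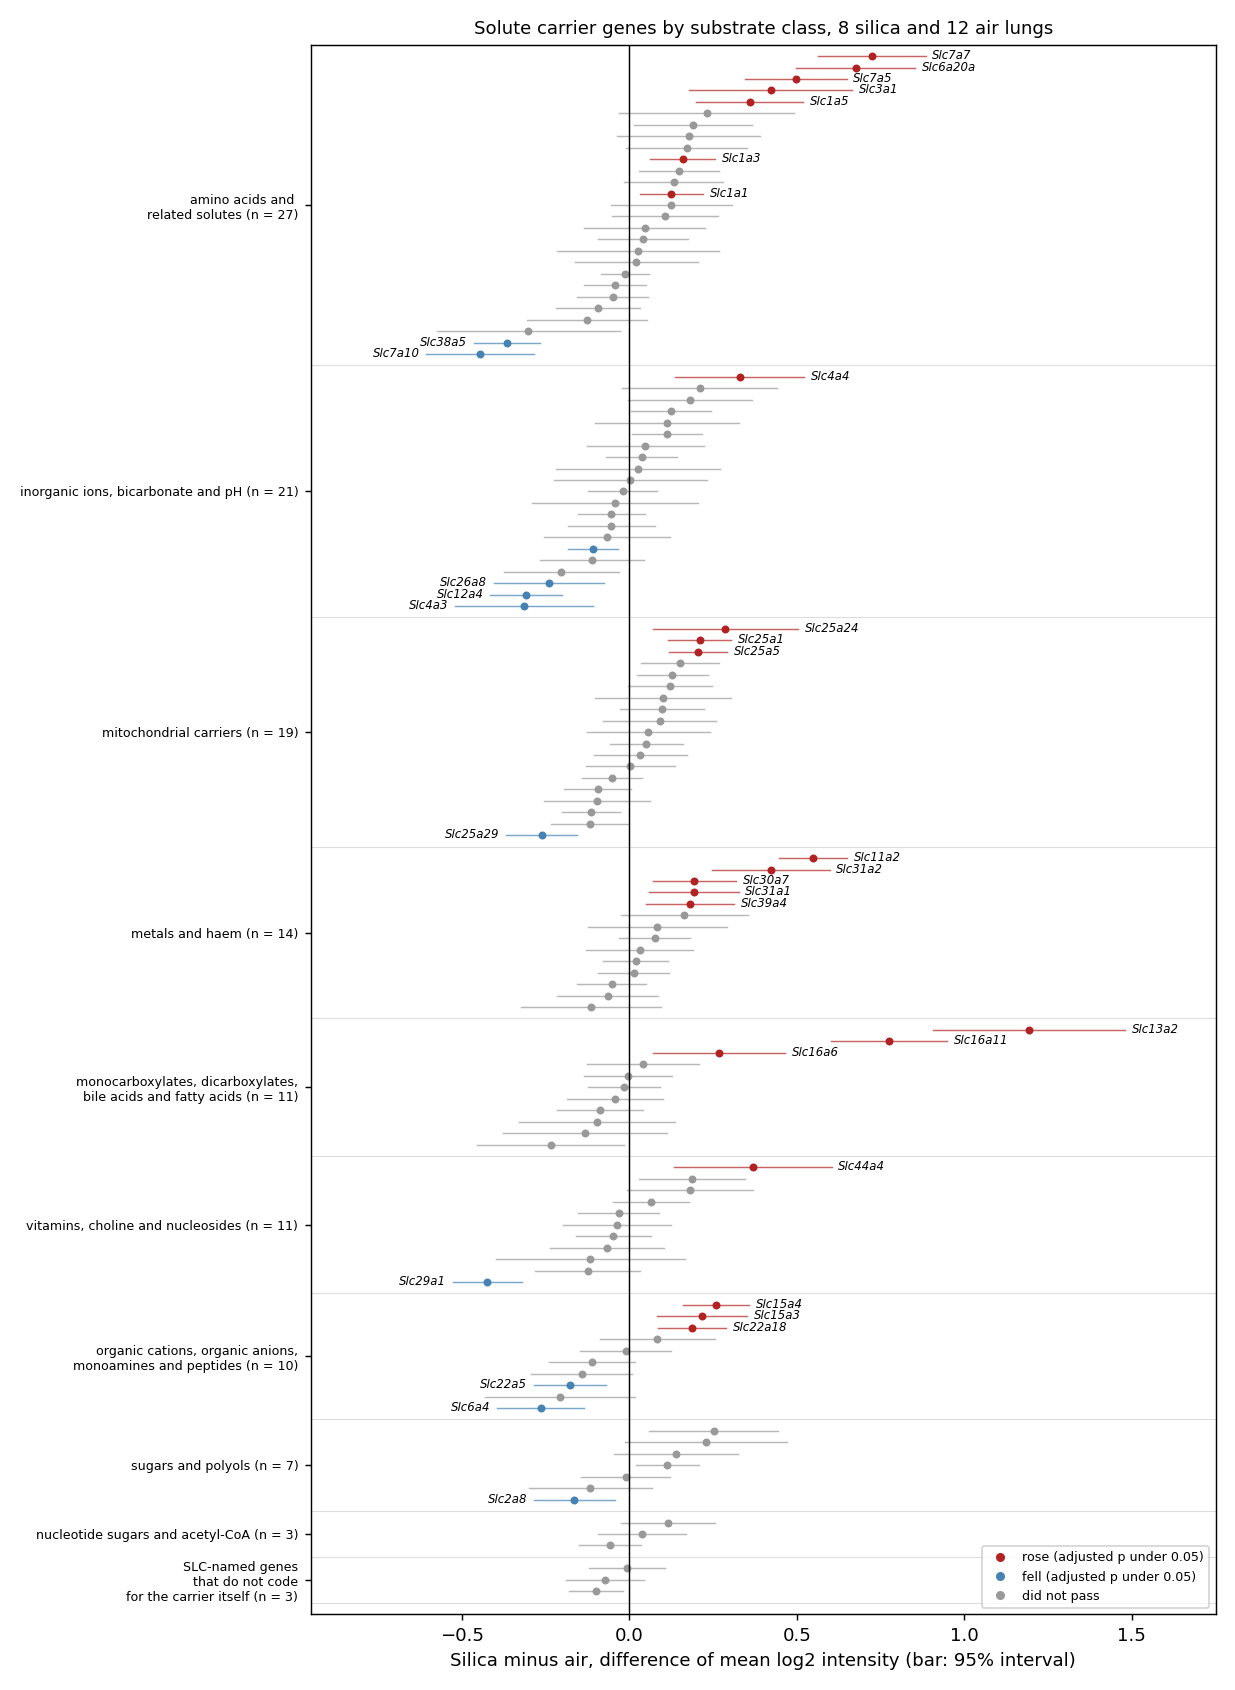
Difference of mean log2 intensity, silica minus air, for each of the 126 members (points, with 95% intervals as bars), grouped by substrate class; genes that passed the test and differed by at least 0.12 are named. The 4 rises of at least 1.5-fold (Slc13a2, Slc16a11, Slc7a7 and Slc6a20a) stand to the right of the rest, and no class lies wholly on 1 side of 0 apart from the 3 SLC-named genes that do not code for a carrier.

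The promoters of Slc13a2, Slc7a7 and Slc29a1 are printed because these genes carry the largest rise, a rise and a fall in which the groups did not overlap. Each is 300 bases of RefSeq sequence of the rat assembly GRCr8 around the start of the gene, written 5′ to 3′ on the strand of the gene. Of the 126 members, 103 had a promoter in the table. Capitals mark matches to TGACNNNGC, the core of the antioxidant response element, and to TGATGNAA, the core of the amino acid response element, both searched on both strands. The windows lie at chr10:63817135-63817434 on the minus strand for Slc13a2, at chr15:31835634-31835933 on the minus strand for Slc7a7 and at chr9:22896849-22897148 on the plus strand for Slc29a1.
Slc13a2: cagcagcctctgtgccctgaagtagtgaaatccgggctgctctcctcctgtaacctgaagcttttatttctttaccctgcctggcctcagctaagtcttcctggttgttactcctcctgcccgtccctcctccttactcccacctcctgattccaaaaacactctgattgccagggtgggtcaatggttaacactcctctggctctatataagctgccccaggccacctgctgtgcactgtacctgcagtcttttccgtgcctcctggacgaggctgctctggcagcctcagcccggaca
Slc7a7: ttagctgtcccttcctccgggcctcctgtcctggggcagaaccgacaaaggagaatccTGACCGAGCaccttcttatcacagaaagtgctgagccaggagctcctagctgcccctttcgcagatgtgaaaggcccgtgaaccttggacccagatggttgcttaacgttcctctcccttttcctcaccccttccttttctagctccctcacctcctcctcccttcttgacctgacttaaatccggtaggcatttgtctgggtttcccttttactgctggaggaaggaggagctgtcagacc
Slc29a1: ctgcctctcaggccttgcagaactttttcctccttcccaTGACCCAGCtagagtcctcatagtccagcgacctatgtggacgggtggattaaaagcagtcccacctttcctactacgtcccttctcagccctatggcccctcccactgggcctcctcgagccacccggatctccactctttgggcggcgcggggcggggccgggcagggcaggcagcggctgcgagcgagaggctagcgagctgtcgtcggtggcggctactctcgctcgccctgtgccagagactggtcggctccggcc
The Slc7a7 window and the Slc29a1 window each hold 1 match to TGACNNNGC, and the Slc13a2 window holds 0. Over the members, TGACNNNGC was found in 21 of 103 promoters (20.4%), against 12.2% of all 27457 promoters of that length. Those 27457 were not limited to genes on the array and past the detection filter, as the members were. TGACNNNGC was in 3 of 17 promoters of members that rose, in 3 of 9 of those that fell and in 15 of 77 of those that did not pass. TGATGNAA was found in 3 of 103 promoters (2.91%), against 3.82% of all promoters, and the 3 genes (Slc1a4, Slc38a1 and Slc7a1) did not pass the test. A match describes these letters in this window, and binding there was not measured.

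Carriers of carboxylates, bile acids and fatty acids held the largest change. Of 11 tested members (21 named), 3 rose, 0 fell and 8 did not pass, and the class median was −0.02. Calls made up 27.3% of the class, all of them rises, beside 24.5% of all genes called and 11.7% of all genes rising. Slc13a2 (array identifier ILMN_1373589) takes up citrate and other dicarboxylates with sodium and is best known from kidney and intestine. Its silica levels ran from 8.34 through a median of 8.61 to 8.95, and its air levels from 6.75 through 7.51 to 8.09. The lowest silica rat (82) was above the highest air rat (91), and the silica mean was 2.29-fold the air mean (difference 1.19 ± 0.14 SE, n = 8 and 12, limma adjusted p = 1.134e-06). The air rats were more spread than the silica rats, with an SD of 0.40 against 0.20, and air rats 108 and 140 were the lowest.

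Slc16a11 (ILMN_1363682) belongs to the monocarboxylate carriers, proton-coupled exporters and importers of small organic acids such as lactate and pyruvate. Silica levels of Slc16a11 ran from 8.65 through 8.84 to 9.07 and air levels from 7.71 through 8.02 to 8.52, again without overlap. The silica mean was 1.71-fold the air mean (0.78 ± 0.08 SE, limma adjusted p = 4.002e-07). Slc16a6, which exports ketone bodies from zebrafish liver, had silica levels from 5.95 through 6.34 to 6.54 and air levels from 5.71 through 6.00 to 6.38, so the groups overlapped. It rose by 0.27 ± 0.10 SE (limma adjusted p = 0.0412), near the threshold, and the level averages several probes. The fatty acid carriers Slc27a1, Slc27a3, Slc27a4 and Slc27a6 and the bile acid family members Slc10a3, Slc10a6 and Slc10a7 did not pass, with differences from −0.23 (Slc27a6) to 0.04 (Slc27a4).

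Among carriers of amino acids and related solutes, 7 of 27 tested members rose (48 named), 2 fell and 18 did not pass, with a class median of 0.13. In this class 33.3% were called, against 24.5% of all genes (11.7 percent rising and 12.7 percent falling). With median scaling the rises of Slc1a3 and Slc1a1 were lost, and 5 rose and 2 fell. The rises took in cationic, large neutral, imino and acidic amino acid carriers. Slc7a7 (ILMN_1358568) is the light chain of an exchanger that releases cationic amino acids such as arginine and lysine, and its loss in people causes lysinuric protein intolerance, a disease with alveolar proteinosis. Silica levels of Slc7a7 ran from 9.44 through 9.60 to 9.65 and air levels from 8.41 through 8.85 to 9.21. All 8 silica rats stood above all air rats, at 1.65-fold (0.72 ± 0.08 SE, limma adjusted p = 4.002e-07), and the silica SD was 0.08 against 0.23 in air.

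Slc6a20a carries imino acids such as proline. Its silica levels ran from 6.52 through 6.83 to 7.0001 and its air levels from 5.75 through 6.16 to 6.55. Of the 8 silica rats, 7 were above all air rats, the exception being rat 82, and the silica mean was 1.598-fold the air mean (0.68 ± 0.09 SE, limma adjusted p = 4.095e-06). Slc7a5 is the light chain of the large neutral amino acid exchanger, the main entry route of leucine. Slc7a5 levels ran from 6.92 through 7.20 to 7.29 in silica and from 6.29 through 6.66 to 6.97 in air lungs, with 7 silica rats above all air rats. Its rise was 1.41-fold (0.50 ± 0.07 SE, limma adjusted p = 2.625e-05).

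Slc1a5, an exchanger of glutamine and other small neutral amino acids, had levels from 7.96 through 8.25 to 8.60 in silica and from 7.4998 through 7.96 to 8.13 in air lungs. Only silica rat 88 fell within the air range, and the rise was 1.28-fold (0.36 ± 0.08 SE, limma adjusted p = 0.00156). The call of Slc1a5 was lost against rats 89 to 92 alone and against rats 105 to 108 alone (limma adjusted p = 0.0795 for the latter). Slc3a1, the heavy chain of the cystine and dibasic amino acid carrier, was a dim gene detected on 7 of 8 silica and 5 of 12 air arrays. Its levels ran from 5.43 through 5.64 to 6.06 in silica and from 4.80 through 5.32 to 5.81 in air lungs, a rise of 0.42 ± 0.12 SE (limma adjusted p = 0.0108) with broad overlap. The rise was 0.04 with limma's default background correction, and the call was lost against rats 89 to 92 alone (limma adjusted p = 0.372) and against rats 105 to 108 alone (limma adjusted p = 0.0773). The glutamate carriers Slc1a3 and Slc1a1 rose by 0.16 ± 0.05 SE (limma adjusted p = 0.0151) and 0.13 ± 0.05 SE (limma adjusted p = 0.0441). For Slc1a3 5 silica rats and for Slc1a1 4 silica rats were above all air rats.

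Both falls in this class were of neutral amino acid carriers. Slc7a10, the light chain of an exchanger of small neutral amino acids such as serine and glycine, had levels from 8.82 through 9.05 to 9.35 in silica and from 9.18 through 9.54 to 9.74 in air lungs. It fell by 0.44 ± 0.08 SE (limma adjusted p = 2.054e-04), and 6 silica rats were below all air rats. Slc38a5, which exchanges glutamine with sodium and protons, had levels from 10.56 through 10.66 to 10.84 in silica and from 10.80 through 11.04 to 11.22 in air lungs. It fell by 0.37 ± 0.05 SE (limma adjusted p = 6.699e-06), with 7 silica rats below all air rats.

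Other amino acid carriers often studied beside these did not pass. Slc38a2, a glutamine importer that cells raise when amino acids are short, had a median of 11.66 in silica and 11.68 in air lungs, a difference of −0.01 with a 95% interval of −0.09 to 0.06. Slc7a1, the main importer of arginine, was detected on 7 silica and 6 air arrays and differed by 0.23 ± 0.13 SE (limma adjusted p = 0.192), with medians of 5.67 and 5.46. Slc3a2, the heavy chain shared by the light chains of Slc7a5, Slc7a6, Slc7a7 and Slc7a10, had a median of 11.63 in silica and 11.68 in air lungs. Its difference was −0.04, with a 95% interval of −0.14 to 0.05 (limma adjusted p = 0.541).

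The rises of Slc7a5 and Slc7a7 can be set beside their shared heavy chain within each array. The log2 ratio of a light chain to its heavy chain was formed for 5 pairs. The pairs were chosen after the gene results above were known, so their ratios restate those values rat by rat and carry no test. A ratio within an array shows unequal change and says nothing of the protein complexes. The ratio of Slc7a7 to Slc3a2 was higher in silica by 0.77, and all 8 silica rats lay above all 12 air rats. The ratio of Slc7a5 to Slc3a2 was higher by 0.54, also with all 8 silica rats above all air rats. With limma's default background correction, the Slc7a7 ratio was higher by 0.85 with the same separation, while the Slc7a5 ratio was higher by 0.19 with 3 silica rats above all air rats.

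The ratio of Slc7a6 to Slc3a2 was higher by 0.19, with 4 silica rats above all air rats. The ratio of Slc7a10 to Slc3a2 differed by −0.40, by −0.07 against air rats 89 to 92 alone and by −0.58 and −0.56 against the other runs of 4. The ratio of Slc7a9 to Slc3a1, the light and heavy chain of the cystine carrier, differed by −0.72, by −0.33 to −1.01 against single runs of 4 air rats and by −0.08 with limma's default background correction. It rests on a pair of dim genes: Slc7a9 was detected on 4 silica and 8 air arrays, and its own difference was −0.30 ± 0.13 SE (limma adjusted p = 0.101). Against each run of 4 air rats alone the ratio of Slc7a7 to Slc3a2 was higher by 0.73 to 0.80 and that of Slc7a5 to Slc3a2 by 0.41 to 0.62.

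**Figure D2:**
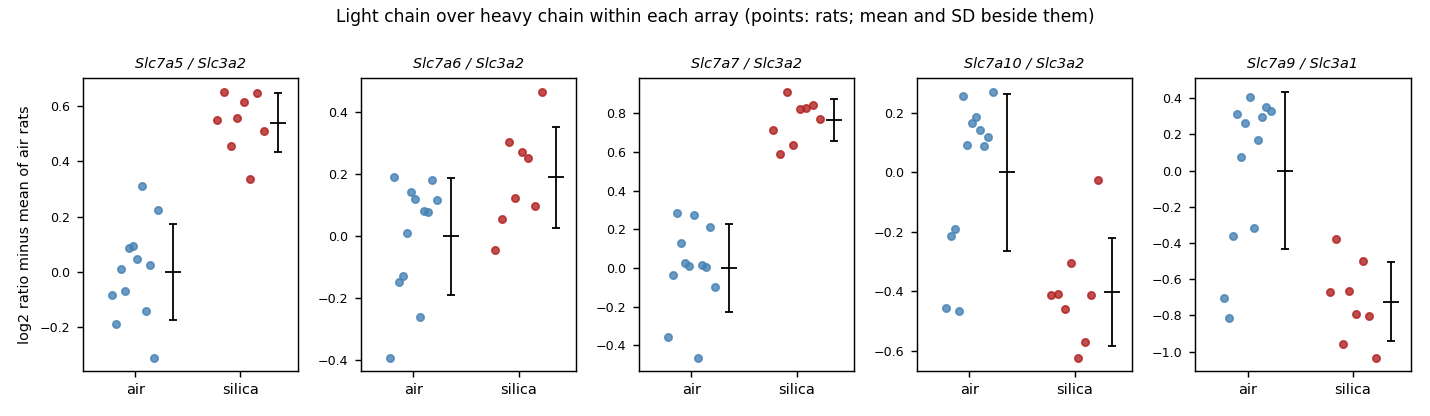
Log2 ratio of a light chain to its heavy chain in each rat, after subtraction of the mean of the 12 air rats (points; the mean and SD of each group stand beside them). The 8 silica rats lie above all air rats for Slc7a5 and Slc7a7 over Slc3a2, and the groups overlap in the other pairs.

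Metal and haem carriers included 5 rises, 0 falls and 9 members that did not pass, of 14 tested (24 named), with a class median of 0.08. In this class 35.7% were called, against 24.5% of all genes (11.7 percent rising and 12.7 percent falling). The rises were of iron, copper and zinc carriers, and with median scaling those of Slc31a1, Slc30a7 and Slc39a4 were lost, leaving 2. Slc11a2 (ILMN_1368699), the proton-coupled importer of ferrous iron, had the smallest p-value of any member. Its silica levels ran from 9.90 through 10.10 to 10.16 and its air levels from 9.32 through 9.53 to 9.76. The groups did not overlap, and the silica mean was 1.46-fold the air mean (0.55 ± 0.05 SE, limma adjusted p = 2.552e-08).

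Both copper carriers of the Slc31 family rose. Slc31a2, which resides in endosomes and lysosomes, had levels from 7.16 through 7.43 to 7.61 in silica and from 6.70 through 6.94 to 7.46 in air lungs, and rose 1.34-fold (0.42 ± 0.09 SE, limma adjusted p = 8.05e-04). The rise was 0.15 with limma's default background correction, and against air rats 89 to 92 alone the limma adjusted p was 0.134. Slc31a1, the copper importer of the plasma membrane, rose by 0.19 ± 0.06 SE (limma adjusted p = 0.0315). Air rat 107, at 7.72, stood above all silica rats but 86. Zinc carriers gave Slc30a7, which fills the Golgi, with a rise of 0.19 ± 0.06 SE (limma adjusted p = 0.0198), and the importer Slc39a4, with a rise of 0.18 ± 0.06 SE (limma adjusted p = 0.0378). The other Slc30 and Slc39 members tested did not pass, with differences from −0.11 (Slc39a5) to 0.16 (Slc39a2).

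Among mitochondrial carriers 3 of 19 tested members rose (24 named), 1 fell and 15 did not pass, with a class median of 0.06. The share called, 21.1%, was below the 24.5% of all genes, and with median scaling 0 rose while the fall was kept. Slc25a5, which exchanges ADP for ATP across the inner membrane, had levels from 12.47 through 12.59 to 12.73 in silica and from 12.25 through 12.40 to 12.55 in air lungs. It rose by 0.21 ± 0.04 SE (limma adjusted p = 9.424e-04), with 6 silica rats above all air rats. Slc25a1, the citrate exporter that feeds lipid synthesis, rose by 0.21 ± 0.05 SE (limma adjusted p = 0.00175), with 5 silica rats above all air rats. Slc25a24, a carrier of adenine nucleotides and phosphate, rose by 0.29 ± 0.10 SE (limma adjusted p = 0.0474), at the edge of the threshold.

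The fall among them was of Slc25a29, which carries basic amino acids into mitochondria. Its levels ran from 7.495 through 7.61 to 7.72 in silica and from 7.62 through 7.87 to 8.07 in air lungs, a fall of 0.26 ± 0.05 SE (difference −0.26, limma adjusted p = 6.541e-04). Only air rat 137 reached into the silica range. The other members that did not pass lay between −0.12 (Slc25a15) and 0.15 (Slc25a11).

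Of 21 tested carriers of inorganic ions and bicarbonate (51 named), 1 rose, 4 fell and 16 did not pass, with a class median of −0.02. The share called, 23.8%, was near the 24.5% of all genes (11.7 percent rising and 12.7 percent falling). With median scaling 1 rose and 1 fell, the falls of Slc4a3 and Slc26a8 being among those lost. Slc12a4, a potassium and chloride cotransporter that sets cell volume, had levels from 7.85 through 8.02 to 8.17 in silica and from 8.06 through 8.32 to 8.51 in air lungs. It fell by 0.31 ± 0.05 SE (difference −0.31, limma adjusted p = 1.267e-04), with 6 silica rats below all air rats. Slc4a3, a chloride and bicarbonate exchanger, fell by 0.31 ± 0.10 SE (difference −0.31, limma adjusted p = 0.0232), though silica rat 88, at 6.26, stood near the highest air rat, at 6.33.

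Slc4a4, the sodium bicarbonate cotransporter, was the rise of this class. Its levels ran from 6.85 through 7.28 to 7.53 in silica and from 6.49 through 6.95 to 7.26 in air lungs, and it rose by 0.33 ± 0.09 SE (limma adjusted p = 0.0115). The call of Slc4a4 was lost against rats 89 to 92 alone and against rats 105 to 108 alone (limma adjusted p = 0.236 for the latter). Slc26a8, an anion exchanger best known from testis, was dim, with detection on 4 silica and 10 air arrays, and fell by 0.24 ± 0.08 SE (difference −0.24, limma adjusted p = 0.0311). The anion exchanger Slc4a1, which is also the anion exchanger of red cell membranes and stands on the red cell marker list, differed by −0.20 and did not pass.

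Carriers of organic cations, anions, monoamines and peptides gave 3 rises and 2 falls of 10 tested (27 named), with a median of −0.06. The share called was 50.0%, against 24.5% of all genes, but with median scaling in place of quantile normalization only the fall of Slc6a4 was called among the 10. Against air rats 89 to 92 alone the calls of all 5 were lost. The lysosomal peptide and histidine carriers both rose. Slc15a4, which endosomal Toll-like receptor signalling depends on, had levels from 9.94 through 10.05 to 10.18 in silica and from 9.60 through 9.81 to 9.998 in air lungs, a rise of 0.26 ± 0.05 SE (limma adjusted p = 3.432e-04). Slc15a3 had levels from 8.84 through 9.001 to 9.18 in silica and from 8.45 through 8.84 to 8.98 in air lungs, a rise of 0.22 ± 0.07 SE (limma adjusted p = 0.0175). Slc15a2, the peptide importer of lung epithelium, differed by −0.14 with a 95% interval of −0.29 to 0.01 and did not pass.

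Slc6a4 clears serotonin and is carried by lung endothelium and platelets. Its levels ran from 8.42 through 8.53 to 8.73 in silica and from 8.61 through 8.80 to 9.09 in air lungs, a fall of 0.26 ± 0.06 SE (difference −0.26, limma adjusted p = 0.00338) with 6 silica rats below all air rats. Slc22a5, the carnitine importer, fell by 0.18 ± 0.05 SE (difference −0.18, limma adjusted p = 0.0161). Slc22a18, an organic cation carrier homologue from an imprinted region, rose by 0.19 ± 0.05 SE (limma adjusted p = 0.00702), and its difference was 0.05 against air rats 89 to 92 alone (limma adjusted p = 0.621). The noradrenaline carrier Slc6a2 differed by −0.21 and did not pass.

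For vitamins, choline and nucleosides, 1 of 11 tested members rose (19 named), 1 fell and 9 did not pass, with a median of −0.04. Calls made up 18.2% of the class and 24.5% of all genes. Slc29a1, the equilibrative carrier that lets adenosine and other nucleosides across the plasma membrane, had silica levels from 10.45 through 10.76 to 10.91 and air levels from 11.06 through 11.17 to 11.33. Every silica rat was below every air rat, and the air mean was 1.34-fold the silica mean (difference −0.42 ± 0.05 SE, limma adjusted p = 1.47e-06). Slc44a4, a choline carrier family member that takes up thiamine pyrophosphate in human colon, ran from 8.42 through 8.84 to 9.24 in silica and from 7.98 through 8.61 to 8.83 in air lungs. It rose by 0.37 ± 0.11 SE (limma adjusted p = 0.0202), and without silica replicate 5 (rat 85) its adjusted p was 0.0538.

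Sugar and polyol carriers gave 0 rises and 1 fall of 7 tested (21 named), so 14.3% were called, against 24.5% of all genes (12.7 percent falling). Slc2a8, an intracellular glucose carrier, fell by 0.16 ± 0.06 SE (difference −0.16, limma adjusted p = 0.0438). The call was kept under 5 of 12 alternatives of processing or control rats. It was lost with median scaling, in the authors' deposited log2 values and against each run of air rats alone, among others. The myo-inositol carrier Slc5a3 and the fructose carrier Slc2a5 had differences of 0.25 and 0.23 and did not pass. Nucleotide sugar and acetyl-CoA carriers gave 0 calls of 3 tested (4 named), with Slc35a1, the importer of CMP-sialic acid into the Golgi, at 0.12 (limma adjusted p = 0.225). The 3 SLC-named genes that do not code for a carrier gave 0 calls as well, Nherf2 (the scaffold once named Slc9a3r2) differing by −0.07 and the nuclear protein Slc4a1ap by −0.10 (limma adjusted p = 0.0695).

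**Figure D3:**
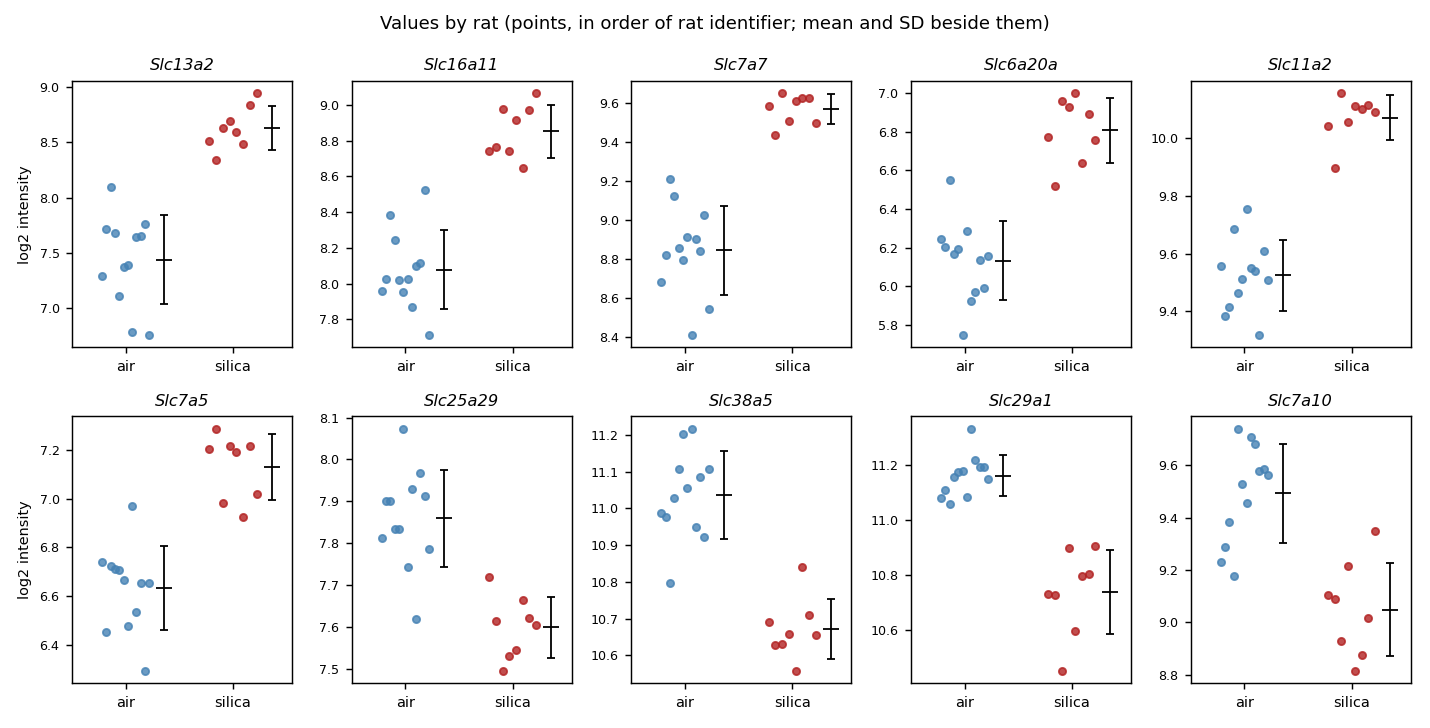
Log2 intensity of 10 members in every rat, air (12 points) and silica (8 points), with the mean and SD of each group beside the points. The groups do not overlap for Slc13a2, Slc16a11, Slc7a7, Slc11a2 and Slc29a1 and do so for the other 5 genes.

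The 34 called members were also read rat by rat. In 27 of the 34, all 8 silica rats lay on the called side of the air mean. The calls were made from the same values, so this count describes them and adds no test. Slc44a4 and Slc4a3 were among the exceptions: silica rats 81 and 82 had Slc44a4 levels close to the air mean, and silica rat 88 had a Slc4a3 level above it. Rat 108 and rat 140 of the air group had low levels of Slc13a2 and Slc7a7.

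**Figure D4:**
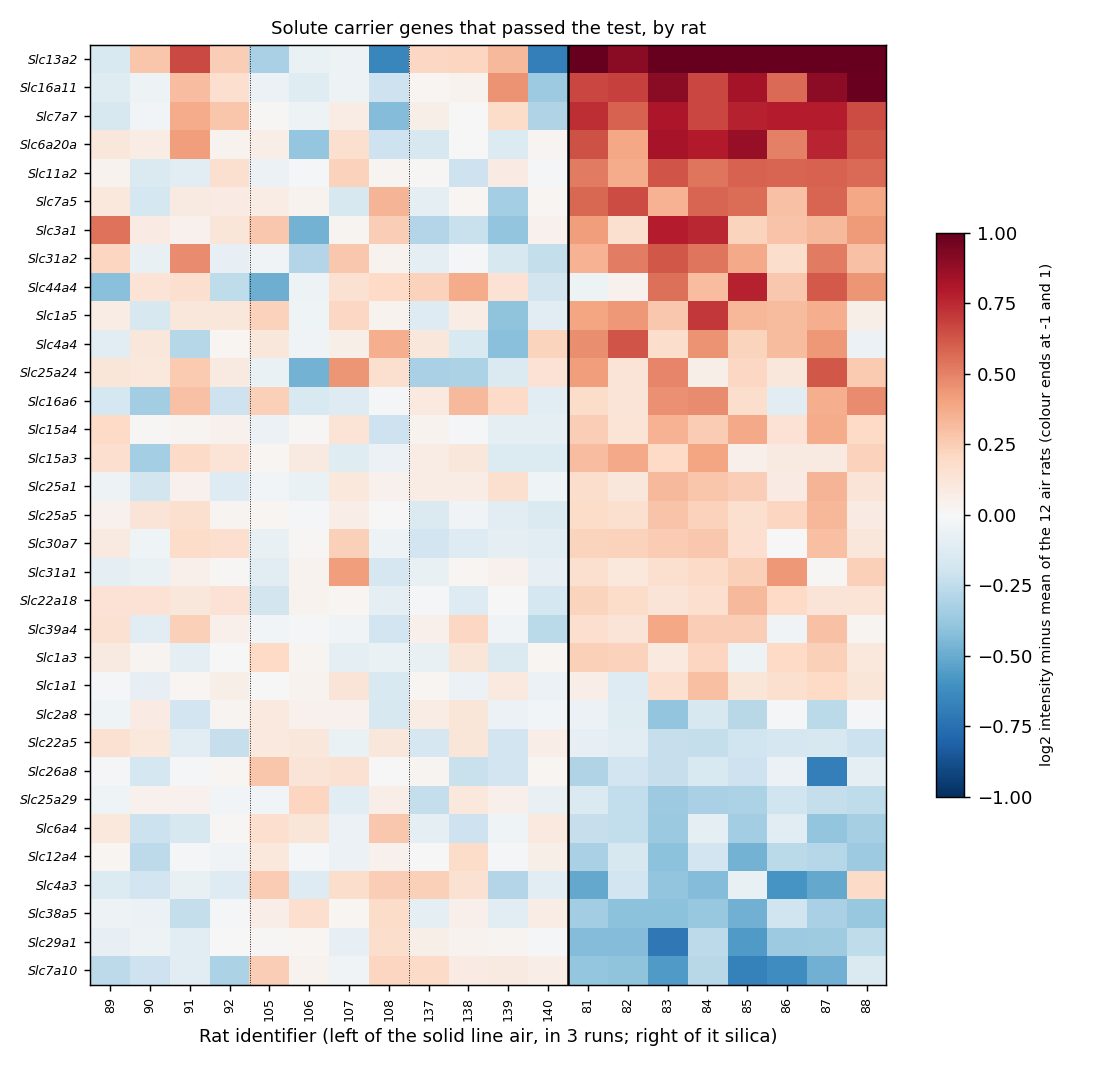
Log2 intensity minus the mean of the 12 air rats for the 33 members that passed the test and differed by at least 0.12 (rows, in order of the difference) in each rat (columns; air left of the solid line, with dotted lines between the 3 runs, silica right of it). The colour scale ends at -1 and 1, and in 26 rows all 8 silica rats lie on the called side of the air mean. The rows were chosen by the test on these same values.

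Since the runs of control identifiers could be batches, the members were compared between the runs and against each run alone. Between the 3 runs, 0 members differed by limma's moderated F test (adjusted p under 0.05; background 0.162 percent of genes), and 14 of 126 did at an unadjusted p under 0.05, as did 11.7% of all genes. Against rats 89 to 92 alone 7 members rose and 4 fell (of all genes 6.19 percent were called, 3.76 percent higher and 2.43 percent lower). Against rats 105 to 108 alone 15 rose and 9 fell (17.3 percent of genes, 8.73 percent higher and 8.59 percent lower), and against rats 137 to 140 alone 22 rose and 8 fell (20.7 percent, 10.8 percent higher and 9.93 percent lower). These comparisons share the silica rats with the pooled one and have 4 air rats each. Passing against all 12 air rats and against each run in the same direction were 9 members, where the background was 4.37 percent of genes.

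The 9 members were Slc13a2, Slc16a11, Slc7a7, Slc6a20a, Slc11a2, Slc7a5, Slc25a29, Slc38a5 and Slc29a1. Slc13a2 was the most uneven between the runs. Its air mean was 7.69 in rats 89 to 92, 7.16 in rats 105 to 108 and 7.45 in rats 137 to 140, so that its rise was 0.94, 1.47 and 1.18 in turn. Slc11a2 rose by 0.56, 0.50 and 0.58 against the same runs. For Slc7a10, the air mean was 9.27 in rats 89 to 92 and 9.61 and 9.60 in the other runs, and its difference against rats 89 to 92 alone was −0.22 (limma adjusted p = 0.162).

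**Figure D5:**
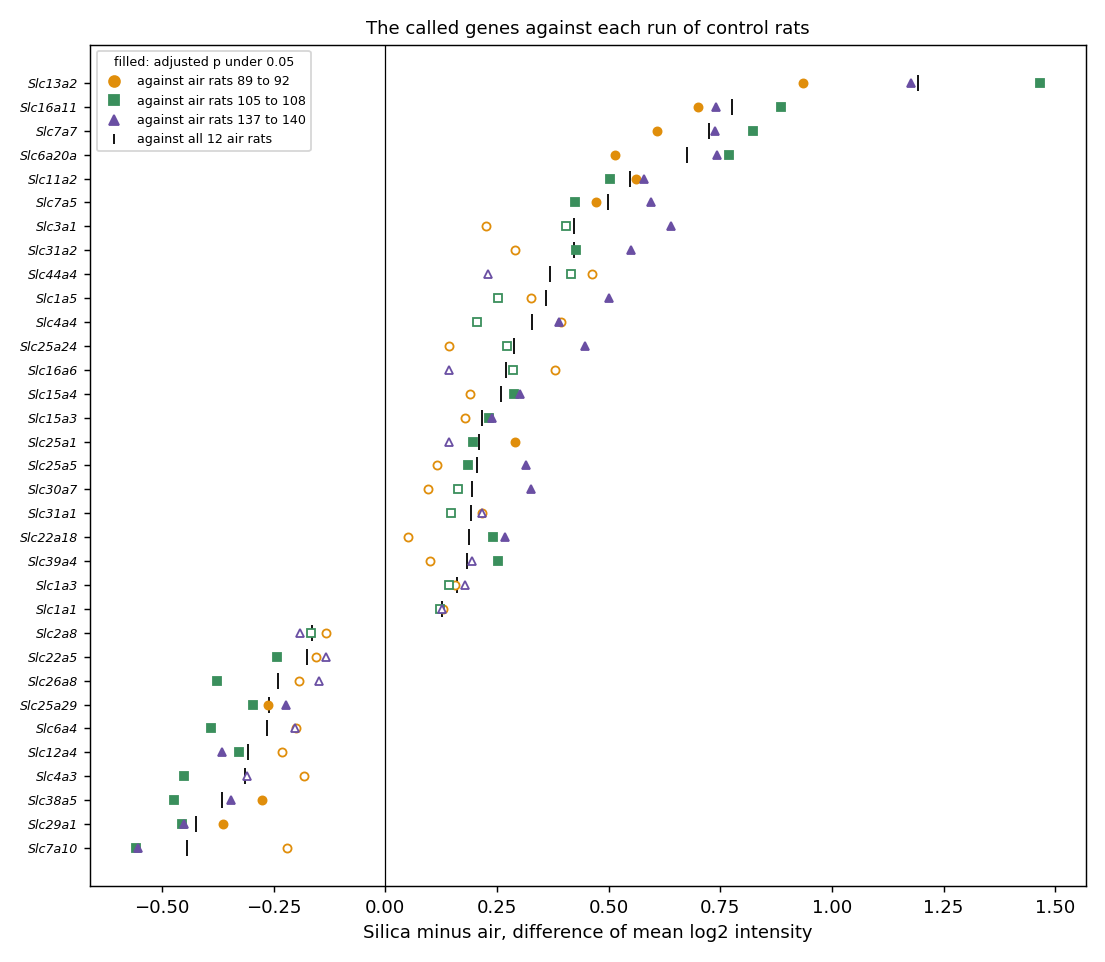
Difference of mean log2 intensity, silica minus air, of the 33 called members that differed by at least 0.12, against all 12 air rats (vertical ticks) and against each run of 4 air rats (coloured symbols, filled where the adjusted p is under 0.05). Each symbol of a gene lies on the same side of 0, and the size for Slc13a2 runs from 0.94 to 1.47.

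Other transport genes stood beside the carriers in a list of partners and pumps, which holds Slc3a1 and Slc3a2. Among 22 tested, 8 rose and 2 fell (45.5% called, against 24.5% of all genes). Pdzk1ip1, a small membrane protein that binds a scaffold of carriers, rose by 0.97 ± 0.08 SE (limma adjusted p = 9.198e-09). The sodium pump subunit Atp1b1 (0.33) and the pump regulators Fxyd3 (0.42) and Fxyd5 (0.30) rose, and the regulator Fxyd1 (−0.37) fell. Bsg, the partner of the monocarboxylate carriers, differed by −0.09 and did not pass, while its homologue Emb rose by 0.18.

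Of the genes that cells raise when amino acids are short or the endoplasmic reticulum is stressed, 23 were tested, 7 rose and 2 fell. The rises included Cdkn1a and Phgdh, each detected on 7 silica and 5 air arrays. The falls included Cars1, detected on 4 silica and 10 air arrays. For such genes the detection filter favours a difference. Calls made up 39.1% of this list and 24.5% of all genes (11.7 percent rising and 12.7 percent falling). Eif4ebp1 rose by 0.36 ± 0.06 SE (limma adjusted p = 4.749e-05) and the asparagine synthetase Asns by 0.21 ± 0.07 SE (limma adjusted p = 0.0307), while the factor Atf4 had a difference of −0.01 (limma adjusted p = 0.941). Of the organic anion carriers of the SLCO family 5 were tested, and Slco1a5 (0.51) and Slco4c1 (0.40) rose while Slco3a1 (−0.16) fell. Slco4c1 was detected on 8 silica and 6 air arrays, so the filter favoured its rise. Among 26 ABC transporters, the ATP-driven pumps, 4 rose and 5 fell, with the sterol exporters Abca1 and Abcg1 rising by 0.28 and 0.38. Of the 10 tested rows among the SLC names left out of the members, 5 rose and 0 fell. Against the same 24.5% of all genes, calls made up 60.0% of the SLCO genes, 34.6% of the ABC transporters and 50.0% of these rows.

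Cell type markers changed in the same lungs as the carriers, and their part in the results was not tested. Over all genes tested, 11.7 percent rose and 12.7 percent fell, and 1.83 percent had every silica array above every air array. Of the 8 neutrophil markers tested 6 rose. The summed intensity of the 8 was 5811 to 7854 in silica and 2953 to 4202 in air lungs, without overlap. Among the 6, Csf3r (detected on 6 silica and 2 air arrays) and Cxcr2 (8 and 6) passed the detection filter mainly through silica arrays. S100a9, Fpr1 and Mpo of that list were below the detection filter. In the list for monocytes and recruited macrophages 6 of 8 rose (sums 19167 to 21442 and 10014 to 17793), and of 5 alveolar macrophage markers 3 rose (sums 7951 to 9804 and 4769 to 8789, with Msr1 and Chi3l3 below the filter). Of 8 alveolar type 2 marker rows, which hold Lamp3 more than once, 5 rose (sums 70552 to 78715 and 63315 to 75331). The surfactant genes Sftpa1, Sftpb and Sftpc did not pass. These sums stand beside the rises of Slc7a7, Slc11a2, Slc15a3 and Slc15a4, all measured in the same lungs.

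Marker lists with falls stood beside the falls of Slc29a1 and Slc6a4. Of 7 endothelial markers 5 fell (sums 21685 to 25400 in silica and 24603 to 29959 in air), and of 5 mast cell and platelet markers 3 fell and 1 rose (2388 to 3177 and 1670 to 3645). Among the platelet falls, Gp9 (detected on 4 silica and 11 air arrays) and Ppbp (2 and 9) passed the detection filter mainly through air arrays. Of 11 T and NK cell markers 9 fell (6520 to 7753 and 7509 to 9734), of 4 B cell markers 2 (331.6 to 449.2 and 362.3 to 556.0), of 7 alveolar type 1 markers 2 (36880 to 40623 and 39507 to 43679) and of 9 fibroblast and smooth muscle markers 4 (22775 to 26801 and 23607 to 31847). Of 5 red cell markers 1 fell (39946 to 48249 and 41366 to 48632). Calls made up 28.6% of the alveolar type 1 markers and 20.0% of the red cell markers, all of them falls. Beside these, 24.5% of all genes were called and 12.7% of all genes fell. Airway cell markers (0 of 6 called) and cardiac markers (0 of 4 called, sums 146.0 to 5038 and 164.0 to 7092) did not pass.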

How the data were processed

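RNA of 20 rat lungs was measured on Illumina bead arrays, 1 per rat, from 375 ng of RNA each, per the labels. The deposited table holds mean bead intensities, which the authors made with BeadStudio (per the submitters' processing notes) and which were not normalized, judging from the values. Detection p-values were deposited by the authors in the same table. The authors' deposited log2 values (12763 genes) are normalized between arrays, with the steps not given in the sources used here; they served as an alternative. A further 20 columns of bead standard errors were not used.

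Intensities were corrected with limma 3.58.1 in R 4.3.3 (normexp, offset 16, control mean and SD inferred from the detection p-values of the 21109 single-probe rows, since 683 rows average several probes), quantile-normalized and put on the log2 scale. Genes with detection p under 0.01 on 8 or more arrays were compared with lmFit and eBayes (intensity trend, 2-sided, Benjamini-Hochberg over 10488 genes). For a member that passes this filter mainly through the group where it is high, the filter favours a difference but does not force one. Slc3a1, Slc7a1, Slc26a9, Slc25a27 and Slc46a1 were detected on fewer than 8 air arrays, and of these only Slc3a1 was called. In the other direction, Slc26a8, which was called as a fall, was detected on more air than silica arrays. Both calls are counted above with this limit. Just outside the filter, Slc39a10 was detected on 7 arrays (6 silica, 1 air). Just inside, Slc25a27 was detected on 11. The fits were tested on simulated data.

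Old symbols were updated through a RefSeq table (122 by symbol, 4 by synonym), used only for names, and 2 members average several probes. Substrate classes follow carrier families and were assigned by hand. Members, lists, classes and the naming rule were chosen with earlier results of these data known, and the 5 subunit pairs after the data were seen. The naming rule took the 10 largest rises and 10 largest falls past the threshold, per class the 2 passing members of smallest p (or the one of smallest p), and 15 genes by name; others are named only as having passed or not, or to describe a class. Replicate numbers do not pair the rats: correlations of same-numbered deviations ran from −0.23 to 0.16. A few genes are not reported here, and the figures that name called members show those differing by at least 0.12. Labels name separate rats, so the spread is between animals.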

Additional observations from a re-analysis of the deposited data

Results flagged for a closer look

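In the silica group of 8 rats, 3 of the 41 named members had 1 rat far from the others by Dixon's ratio of gap to range. Chance flags about 1 in 20 groups. The lowest Slc11a2 level, 9.90 in rat 82, lay 0.561 of the range below the next, 10.04, and was still above every air rat. The highest Slc22a18 level, 9.56 in rat 85, lay 0.539 of the range above the next, 9.46. The lowest Slc26a8 level, 4.86 in rat 87, lay 0.613 of the range below the next, 5.24, in a gene detected on 4 of 8 silica arrays.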

How the results depend on the processing

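Under 12 alternatives, 392 of 487 values of the 41 named members kept their direction and their side of the threshold, 87 fell short of it, 1 passed it and 7 changed sign. Slc13a2, Slc16a11, Slc7a7, Slc6a20a, Slc11a2, Slc7a5, Slc25a29, Slc38a5 and Slc29a1 passed under all 12. Sizes of dim members were smallest with limma's default background correction: Slc3a1 0.04, Slc31a2 0.15, Slc4a4 0.11, Slc26a8 −0.02 and Slc4a3 −0.04. The count of changed members was 34. It was 18 with median scaling (12 rose, 6 fell, median difference 0.0024; 13.2% of all genes called, against 14.3% of members) and 11 against air rats 89 to 92 only (7 rose, 4 fell; 6.19% of genes). The count that rose was 15 against air rats 105 to 108 only, where 8.73% of all genes rose. The count that fell was 7 with no detection filter, where 9.87% of 21792 genes and 19.8% of members were called in either direction. Members whose groups did not overlap numbered 10, 17 and 21 against air rats 89 to 92, 105 to 108 and 137 to 140 only, where fewer air rats were compared and 537, 1087 and 1202 of the 10488 genes were without overlap. With the replicate number as a block, which does not pair the rats, 18 rose and 5 fell (14.7% of genes called, 18.3% of members). The cause of the other changes was not tested. Leaving out 1 rat in turn gave 28 to 38 changed members (19 to 26 rose, 8 to 12 fell) beside 2182 to 2758 of all genes. Members changed at least 1.5-fold numbered 4 in each of these fits (1.34% of all genes in the fit with every rat). Members without overlap numbered 5 to 7 (2.59% to 3.55% of all genes), and the median difference was 0.0137 to 0.0444. Called members missed the threshold in these numbers of the 20 fits that left out 1 rat: Slc1a1 in 14, Slc2a8 in 13, Slc39a4 in 12, Slc25a24 and Slc16a6 in 11, Slc31a1 in 5, Slc26a8 and Slc4a3 in 3 and Slc44a4 in 1.

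Sign changes were seen in members that did not pass under any alternative or with any rat left out: Slc35a1 (−0.0160 against rats 89 to 92), Slc38a2 (0.0319 against 89 to 92, 0.0068 against 105 to 108, and −0.0230 to 0.0006 when 1 rat was left out, above 0 without silica replicate 2 and, at 0.0003, without air replicate 6), Slc3a2 (0.0192 against 105 to 108, 0.0056 against 137 to 140), Slc15a2 (0.0011 against 105 to 108) and Nherf2 (0.0175 against 137 to 140). The subunit ratio of Slc7a5 to Slc3a2 was 0.19 with the default background correction and 0.32 in the authors' deposited log2 values, and that of Slc7a9 to Slc3a1 −0.08 and −0.23.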
